A study of Mus musculus with 18 samples.

Results

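The genes described here encode subunits of voltage-gated calcium and sodium channels and of potassium channels in pancreatic islets. They were chosen by symbol, as genes whose name starts with Kcn, Cacna1, Cacna2d, Cacnb, Cacng or Scn followed by a digit, measured by a probe set with exactly 1 symbol. Of 125 genes with such names, 82 had a mean log2 signal of at least 5 over all 18 arrays and are the members; the array as a whole gave values for 22180 genes. The family of genes was chosen with earlier results of these data known. Within it the mean over the arrays set the members, without use of differences between groups. Kcnj5, Kcne4 and Kcnk9, however, had means under 5 in the control arrays (4.87, 4.94 and 4.70) and were members through the knockouts. The members just inside the limit were Kcnk9 (5.06), Kcnn2 (5.16) and Cacng6 (5.19), and the genes just outside were Kcnc2 (4.95), Kcnj15 (4.95) and Kcnk2 (4.92). By role the members were 6 of the 10 named calcium channel pores, 11 of 15 calcium channel accessory subunits, 4 of 8 sodium channel pores, 1 of 3 sodium channel accessory subunits, 23 of 36 voltage-gated potassium channels, 9 of 13 inward rectifiers, 10 of 13 two-pore-domain potassium channels, 6 of 8 calcium- or sodium-activated potassium channels and 11 of 17 potassium channel accessory subunits. Kcnq1ot1, a non-coding RNA of the Kcnq1 locus, is 1 of 2 non-coding transcripts that met the name rule and codes for no channel.

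The mice, on a C57BL/6 background, were males and females aged 16 weeks. From their islets 250 ng of total RNA per sample was hybridised to single-colour whole-transcript arrays, with 3 arrays in each of 6 groups. Knockout mice were RIPCre;TRAF2loxP/loxP or RIPCre;TRAF3loxP/loxP, in which the rat insulin promoter drives Cre recombinase and so directs the deletion to beta cells, and control mice were floxed littermates, for which it is not stated which gene was floxed or whether Cre was absent. Chow was the one diet, and the other was a high-fat diet (HFD), in which fat gave 45% of the energy, begun at 8 weeks of age and kept up for 8 weeks. TRAF2 and TRAF3 are adaptor proteins that hold the kinase NIK and non-canonical NF-kB signalling in check, and the comparisons ask what their loss does in beta cells on either diet. If the controls lacked Cre, an effect of the transgene cannot be told apart from that of the deletion. This holds also for differences that both knockouts share. Whether every sample was another animal is not stated, so the p-values measure only the spread between these samples.

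Beta cells turn glucose metabolism into electrical activity: closure of ATP-sensitive potassium channels depolarises the membrane, voltage-gated calcium channels open, and the calcium that enters releases insulin. Sodium channels add to the upstroke of the action potential, and voltage-gated, calcium-activated, G-protein-gated and two-pore-domain potassium channels set the resting potential, end the action potential and shape the bursts. Accessory subunits bring the pores to the membrane and tune their gating.

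Traf2 itself read 6.90 to 7.50 in the TRAF2 knockout arrays against 6.46 to 7.34 in the controls, and since the sources used here do not say which part of the transcript the probe set or the deletion covers, this does not check the genotype labels. Xist and Y-linked transcripts marked 1 female per group on chow, 3 females among the HFD controls and 2 females in either HFD knockout group, with males making up the rest, so sex and genotype were partly tied on HFD. HFD TRAF3 knockout 3 and HFD control 3 stood apart from their groups over the members, with median deviations of -0.28 and -0.23 from the group means. The beta cell markers, which check the tissue label, had a mean log2 signal of 9.52 to 11.34 per array, where the array medians over all probe sets were 4.80 to 4.96. Acinar markers (10 of 14 measured) read 10.90 to 12.70 per array and ductal markers (9 of 12 measured) 7.02 to 9.05. The samples were thus not free of exocrine tissue, and its amount differed between arrays. A sample of whole islets cannot tell fewer cells of a type from less RNA per cell.

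Differences below are log2 values of the first group minus the second with limma's moderated standard error (SE), and a gene was called at a Benjamini-Hochberg adjusted p under 0.05 over all 22180 genes. The members changed most in TRAF3 knockout islets on chow, where 25 of 82 (30.5%) were called, 6 higher and 19 lower, when 11.0% of all genes (6.33% higher and 4.69% lower) and 16.6% of the genes with a mean of at least 5 were called. In the other 3 comparisons of a knockout with its controls the called members were the potassium channel genes Kcnj5 and Kcnk10, and both rose in all 4. This was 2 members in TRAF2 knockouts on chow, when 0.298% of all genes were called, 2 in TRAF2 knockouts on HFD (0.252% of all genes) and 2 in TRAF3 knockouts on HFD (2.52%). The median difference of the members in TRAF3 knockouts on chow was -0.30, against -0.01 over all genes, and in the other 3 comparisons it lay between -0.09 and 0.03. Over both knockouts and both diets 4 members rose and 0 fell, when 2.80% of all genes were called. At an unadjusted p under 0.05 there were 32 members, and 16.1% of all genes. Kcnj5 is in all of these counts and Kcne4 is among the 25. Both had control means under 5 and were members through the knockouts, so these counts are not independent of the choice of members. The 2 knockouts share their controls within a diet.

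**Figure D1:**
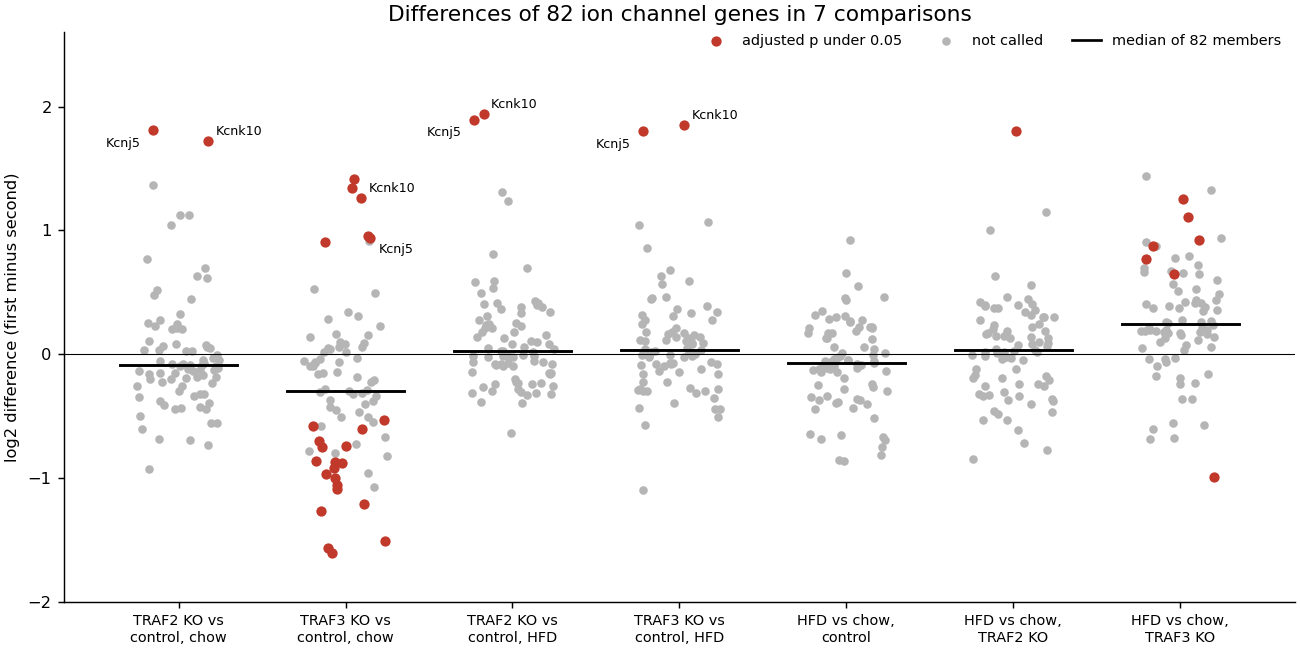
Log2 differences of the 82 members (points, y axis) in 7 comparisons (x axis; KO, knockout), with members past an adjusted p of 0.05 in red and the median of the 82 as a bar. Kcnj5 and Kcnk10 lie above the other members in 3 of the 4 knockout comparisons, and most members called in TRAF3 knockouts on chow lie below 0.

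Kcnj5 encodes GIRK4, a G-protein-gated inward rectifier that opens when Gi-coupled receptors release beta-gamma subunits, and Kcnk10 encodes TREK-2, a two-pore-domain channel opened by stretch, fatty acids and temperature; both let potassium out and hold the membrane at rest. Because these 2 genes moved together, the 250 bases before their start sites are shown, from RefSeq's table on GRCm38.p6, in which 66 of the 82 members had a promoter. The Kcnj5 window is chr9:32344345-32344594 on the minus strand, and the window of the farther upstream of 2 Kcnk10 start sites is chr12:98578214-98578463 on the minus strand. Capitals mark the 1 match to a relaxed NF-kB motif, GGG and CC with any 5 bases between them, on either strand.
Kcnj5: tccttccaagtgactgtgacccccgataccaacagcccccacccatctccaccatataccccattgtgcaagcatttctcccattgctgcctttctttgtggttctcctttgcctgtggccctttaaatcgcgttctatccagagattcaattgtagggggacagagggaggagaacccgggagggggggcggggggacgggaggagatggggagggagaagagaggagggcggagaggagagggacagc
Kcnk10: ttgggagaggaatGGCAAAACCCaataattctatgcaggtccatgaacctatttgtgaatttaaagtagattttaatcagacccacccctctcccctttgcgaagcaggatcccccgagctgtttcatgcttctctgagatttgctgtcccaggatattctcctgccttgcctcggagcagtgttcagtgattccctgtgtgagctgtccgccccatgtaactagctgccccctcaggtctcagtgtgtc
Kcnj5 had 0 matches to this motif and Kcnk10 had 1 in each of its 2 windows, and neither gene had a match to TTCNNNGAA, the STAT motif. The relaxed NF-kB motif occurred in windows of 48.7% of the 27025 genes in the table and of 49 of the 66 members (74.2%), and TTCNNNGAA in 8.13% of all genes and 7 members (10.6%). A match is a run of letters and not a binding site.

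Kcnj5 read 4.48, 4.83 and 5.22 in the chow controls, 6.44, 6.72 and 6.78 in TRAF2 knockouts on chow and 6.07, 5.99 and 5.27 in TRAF3 knockouts on chow. On HFD it read 4.91, 5.33 and 4.47 in controls, 6.57, 7.03 and 6.78 in TRAF2 knockouts and 6.95, 6.87 and 6.28 in TRAF3 knockouts. Every one of the 12 knockout arrays lay above every control array of its diet. Kcnj5 was 3.50-fold higher in TRAF2 knockouts on chow (1.81 ± 0.26, SE, n = 3 per group, limma adjusted p = 0.00676), 3.71-fold on HFD (1.89 ± 0.26, adjusted p = 0.00418) and 3.48-fold in TRAF3 knockouts on HFD (1.80 ± 0.26, adjusted p = 0.00184). In TRAF3 knockouts on chow the rise was 1.91-fold (0.94 ± 0.26, adjusted p = 0.0322). There it was smaller than in TRAF2 knockouts on chow by 0.87, a difference that did not pass over all genes (adjusted p = 0.0967), and within TRAF3 knockouts Kcnj5 was 0.92 higher on HFD than on chow (adjusted p = 0.0404), a call that held in 9 of 18 fits that left out 1 array, and stood at 0.67 (adjusted p = 0.218) without chow TRAF3 knockout 3 and at 0.36 (adjusted p = 0.724) with the beta cell score as a covariate.

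Kcnk10 read 5.04, 5.44 and 6.13 in the chow controls, 6.71, 7.46 and 7.62 in TRAF2 knockouts and 7.05, 6.78 and 6.58 in TRAF3 knockouts on chow. On HFD the controls read 5.29, 4.65 and 4.62, the TRAF2 knockouts 6.96, 6.74 and 6.68 and the TRAF3 knockouts 6.65, 6.61 and 6.85. Here too all 12 knockout arrays were above every control of their diet. The rise was 3.30-fold in TRAF2 and 2.40-fold in TRAF3 knockouts on chow (1.72 ± 0.27 and 1.27 ± 0.27, adjusted p = 0.0104 and 0.00824), and 3.84-fold and 3.61-fold on HFD (1.94 ± 0.27 and 1.85 ± 0.27, adjusted p = 0.00418 and 0.00182). Over both knockouts and diets Kcnj5 was 1.61 ± 0.16 higher (adjusted p = 6.93e-05) and Kcnk10 1.70 ± 0.17 (adjusted p = 5.74e-05). The knockout by diet interaction was not called over all genes for either gene. That of Kcnj5 was 0.08 (95% interval -0.71 to 0.88) for TRAF2 and 0.86 for TRAF3, where the unadjusted 95% interval of 0.07 to 1.65 lay above 0 (adjusted p = 0.19), and that of Kcnk10 was 0.22 (-0.59 to 1.03) and 0.59 (-0.22 to 1.40).

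The calls of both genes on HFD held in every alternative run, with adjusted p between 0.000659 and 0.0388. On chow the call of Kcnk10 in TRAF3 knockouts held without any single array, and missed the threshold with the ductal (1.13, adjusted p = 0.0745) or beta cell score (1.62, adjusted p = 0.335) as a covariate. The other 3 calls on chow depended on single arrays: without chow TRAF2 knockout 3 the TRAF2 calls missed the threshold (Kcnj5 1.74, adjusted p = 0.0518; Kcnk10 1.55, adjusted p = 0.0788), as did Kcnk10 without chow control 1 (1.48) or 2 (1.67), and the Kcnj5 call in TRAF3 knockouts missed it without TRAF3 knockout 1 (0.79) or 2 (0.83) or control 1 (0.75) or 2 (0.93). These 3 calls were also lost when only the compared groups were fitted (adjusted p = 0.204 and 0.469 for Kcnj5 and Kcnk10 in TRAF2 knockouts and 0.0653 for Kcnj5 in TRAF3 knockouts), and the last was lost with the ductal (1.06, adjusted p = 0.0858) or beta cell score (1.59, adjusted p = 0.29). The control means of both genes on HFD (4.90 and 4.85) and of Kcnj5 on chow (4.84) were within the range of the arrays' medians (4.80 to 4.96), and no background level was set, so the size of these folds is uncertain.

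**Figure D2:**
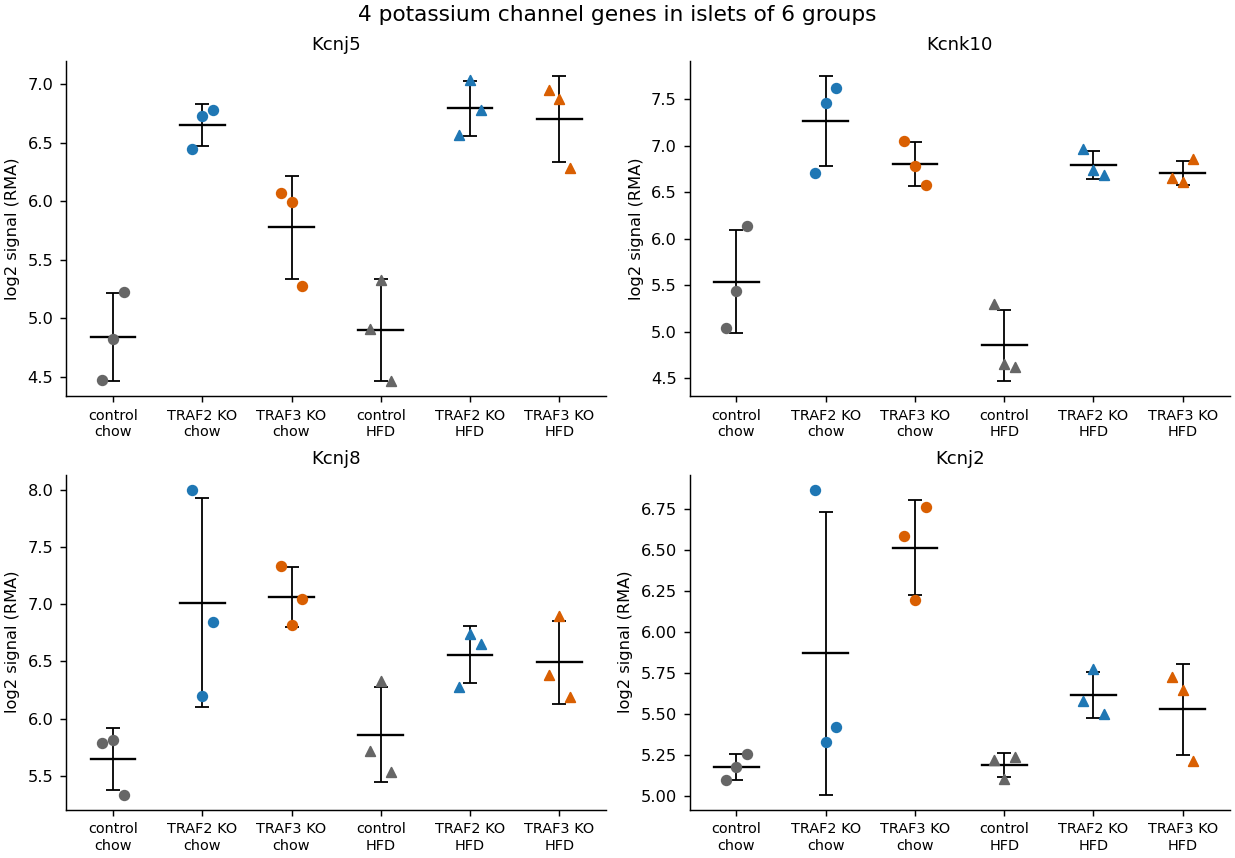
Log2 signal (y axis) of Kcnj5, Kcnk10, Kcnj8 and Kcnj2 on each array of the 6 groups (x axis; circles, chow; triangles, HFD; KO, knockout), with the mean and SD of 3 arrays. For Kcnj5 and Kcnk10 all 12 knockout arrays lie above the controls of their diet; for Kcnj8 and Kcnj2 this holds for 10 and 11 of 12.

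A further 2 inward rectifiers rose over both knockouts and diets, Kcnj8 by 1.03 ± 0.21 (adjusted p = 0.0148) and Kcnj2 by 0.70 ± 0.18 (adjusted p = 0.0482). Kcnj8 encodes Kir6.1, the ATP-sensitive channel pore of pericytes and smooth muscle, and Kcnj2 encodes Kir2.1, a strong inward rectifier found in many cell types including macrophages. Kcnj8 read 5.79, 5.81 and 5.34 in chow controls and 7.33, 6.82 and 7.04 in TRAF3 knockouts on chow, with no overlap (1.42 ± 0.35, adjusted p = 0.0168, which missed the threshold without TRAF3 knockout 1 or 3 or control 3, at 1.28, 1.43 and 1.26). TRAF2 knockouts on chow ranged from 6.20 to 8.00, and the difference of 1.37 was not called (adjusted p = 0.174). Kcnj2 read 5.09, 5.18 and 5.25 in chow controls and 6.58, 6.20 and 6.76 in TRAF3 knockouts on chow (1.34 ± 0.29, adjusted p = 0.00958, and 0.0583 without TRAF3 knockout 3). For Kcnj2, 1 TRAF2 knockout on chow, replicate 1, read 6.87 where the other two read 5.33 and 5.42. That array also had the highest lymphocyte and the highest chow macrophage marker score. On HFD both genes were 0.34 to 0.70 above controls in the 2 knockouts and neither was called. The mean signal of pericyte, stellate and fibroblast markers (10 of 10 measured, 0 higher and 1 lower) ran from 6.65 to 7.05 in chow controls and from 6.58 to 7.10 in TRAF3 knockouts on chow. That of macrophage markers (9 of 9 measured, 3 higher and 0 lower) ran from 6.38 to 6.57 and from 7.29 to 7.45, and their part in these differences was not tested. The Kcnj2 call over both knockouts was lost without any 1 of 13 arrays.

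The remaining 6 inward rectifiers (Kcnj3, Kcnj4, Kcnj6, Kcnj10, Kcnj12 and Kcnj14) were not called in any of the 12 comparisons. Kcnj3 (GIRK1) and Kcnj6 (GIRK2), the other G-protein-gated subunits among the members, with which GIRK4 can assemble, were not called: in TRAF3 knockouts on chow Kcnj3 was at -0.67 ± 0.25 (adjusted p = 0.106) and Kcnj6 at -0.29 ± 0.22, and in TRAF2 knockouts on chow they were at -0.34 and -0.07. Kcnj9 (GIRK3), with a mean of 4.90, was below the level limit. Among the 10 two-pore-domain genes Kcnk10 was the 1 called higher. Kcnk5, Kcnk13 and Kcnk9 are named here after their values were seen. Without a call, Kcnk5 read 6.23, 6.01 and 6.27 in TRAF3 knockouts on HFD against 4.84, 4.97 and 5.50 in HFD controls. On chow it read 5.72, 5.94 and 6.29 in TRAF3 knockouts, within the range of the controls (4.79, 6.56 and 6.54). Kcnk13 and Kcnk9, the latter a member through the knockouts, lay above every control of their diet on 8 of 12 knockout arrays, and Kcnk5 on 6. Counts of this kind were not taken over all genes, and other members without a call had similar ones. Kcna2 and Kcna3 lay above on 9 arrays, and Kcnt1 and Kcng1 lay below every control on 9 and 7. Kcnk16 (TALK-1), a two-pore-domain channel enriched in beta cells, read 11.53, 11.13 and 10.66 in chow controls and 10.46, 10.53 and 10.09 in TRAF3 knockouts on chow, with no overlap, and fell by 0.75 (adjusted p = 0.047). Kcnk12 (THIK-2), named after its value was seen, fell by 0.74 (adjusted p = 0.047). The Kcnk16 call held in 6 of 18 fits that left out 1 array. The calls of Kcnk16 and Kcnk12 were both lost with arrays centred on their medians and with the sex or ductal score as a covariate. Kcnk1 (TWIK-1) was between -0.23 and 0.23 in all 4 knockout comparisons and was not called.

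Of the 19 members that fell in TRAF3 knockouts on chow, 5 were calcium channel accessory subunits, 5 potassium channel accessory subunits, 3 calcium-activated potassium channels, 3 voltage-gated potassium channels, 2 two-pore-domain channels and 1 a sodium channel. Their differences ran from -1.61 for Kcnab3 to -0.53 for Kcnn1, with a median of -0.92. In TRAF3 knockouts on HFD, against separate controls, the same 19 genes had a median difference of -0.08 (range -1.10 to 0.46), none was called, and 3 had an unadjusted p under 0.05, as had 15.0% of all genes. The count of 25 rested on few arrays: it was 3 without chow TRAF3 knockout 3, 8 without chow TRAF3 knockout 1 or chow control 1, and 12 without chow control 2. Beta cell markers moved with it. Their mean signal over the 8 measured of 9 listed (Ins2, Mafa, Ucn3, Slc30a8, Nkx6-1, Pdx1, Iapp and G6pc2; Ins1 was not measured) was 11.34, 11.17 and 10.88 in chow controls and 9.85, 10.29 and 9.52 in TRAF3 knockouts on chow, and 6 of the 8 fell. Over all genes 4.69% were called lower there. The part of the beta cell markers in the fall of the channel genes was not tested. With the beta cell score as a covariate, chosen after seeing the data, 0 members were called by limma and 11 had an unadjusted p under 0.05, but the scores of the 2 groups do not overlap, so score and group cannot be told apart.

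**Figure D3:**
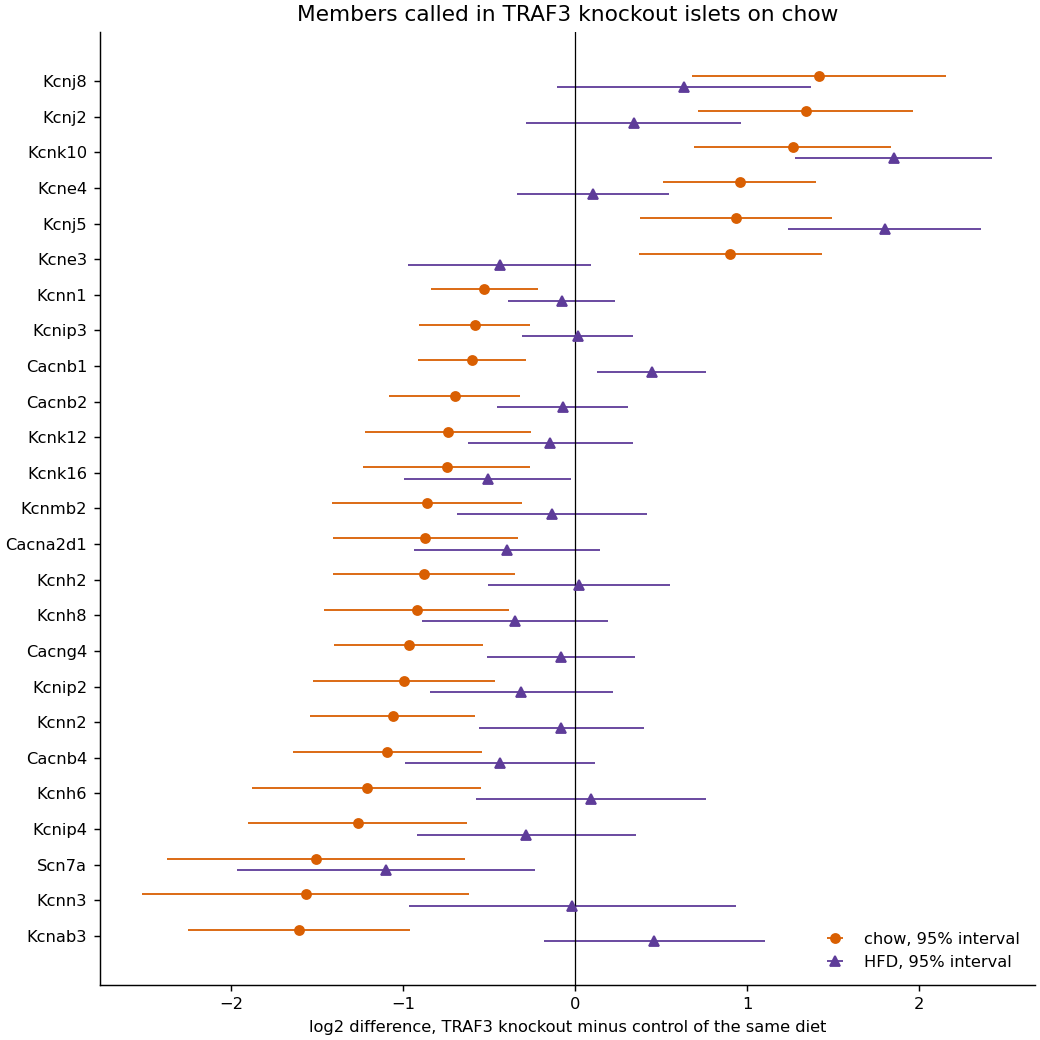
Log2 difference (x axis) between TRAF3 knockouts and controls on chow (circles) and HFD (triangles) for the 25 members called on chow (y axis), with 95% intervals. Kcnj5 and Kcnk10 keep intervals above 0 on HFD, and 19 genes that are below 0 on chow have HFD values from -1.10 to 0.46.

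All 6 calcium channel pores were lower in TRAF3 knockouts on chow, and none was called. Their median difference was -0.57, and 4 had an unadjusted p under 0.05, as had 24.2% of all genes. Cacna1a (the P/Q-type pore CaV2.1) read 8.77, 7.85 and 7.63 in chow controls against 7.32, 7.35 and 6.71 (-0.96 ± 0.31, adjusted p = 0.0614). Cacna1d (the L-type pore CaV1.3) read 8.66, 8.58 and 8.08 against 7.68, 8.09 and 7.19 (-0.79 ± 0.27, adjusted p = 0.0743), and Cacna1c (the L-type pore CaV1.2, which couples to insulin granules) 8.26, 8.04 and 7.68 against 7.71, 7.50 and 7.11 (-0.55 ± 0.30, adjusted p = 0.291). Chow control 1 was the highest array of its group for all 3. It was also the only female array among the chow controls (Xist 11.28 against 4.81 and 4.53). Its ductal marker score (7.02) was the lowest of the 18 arrays, and the part of either was not tested. Cacna1h (the T-type pore CaV3.2) was at -0.38 ± 0.17 (adjusted p = 0.176). In TRAF2 knockouts and on HFD the 6 pores had median differences between -0.10 and 0.13, and none was called.

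Among the 11 calcium channel accessory subunits 5 fell in TRAF3 knockouts on chow, when 4.69% of all genes were called lower. None was called in the other knockout comparisons. The beta subunits, which carry the pore to the membrane, fell for 3 members: Cacnb4 by 1.09 (adjusted p = 0.0142), Cacnb2 by 0.70 (adjusted p = 0.0208) and Cacnb1 by 0.60 (adjusted p = 0.0172). Cacnb1 was tight within its groups, with 7.28, 7.30 and 7.24 in chow controls and 6.71, 6.66 and 6.64 in TRAF3 knockouts on chow. Cacnb4 read 6.73, 6.41 and 5.52 against 5.15, 5.20 and 5.03, without overlap, though chow control 3 came near. Cacna2d1, an alpha2-delta subunit, fell by 0.87 (adjusted p = 0.0378), with 9.92, 9.65 and 9.30 against 8.71, 9.07 and 8.46. Cacng4, a gamma subunit of the family that also regulates AMPA receptors, fell by 0.97 (adjusted p = 0.00758) and read 6.81, 7.15 and 6.95 against 6.18, 6.23 and 5.61. Second probe sets of Cacnb2 and Cacnb4, whose means over 18 arrays were 3.68 and 4.30, gave 0.12 and -0.14 in the same comparison.

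Sodium channels changed in 1 of 5 members. Scn7a, an atypical sodium channel of glia and smooth muscle that responds to sodium concentration, read 6.62, 5.39 and 5.49 in chow controls, 4.75, 5.46 and 5.63 in TRAF2 knockouts and 4.34, 4.27 and 4.37 in TRAF3 knockouts on chow, where it fell by 1.51 (SE 0.41, adjusted p = 0.0267). On HFD it read 6.61, 7.15 and 6.50 in controls and 7.10, 7.09 and 7.06 in TRAF2 knockouts, and within TRAF2 knockouts it was 1.80 higher on HFD than on chow (adjusted p = 0.0326). This call was lost without any 1 of the 6 arrays compared (1.54 to 1.98), with the beta cell score as a covariate (1.38) and without the 2 arrays highest in lymphocyte markers, chow TRAF2 knockout 1 and HFD TRAF3 knockout 2 (1.54), with adjusted p from 0.0527 to 0.119. In the same TRAF2 knockouts pericyte, stellate and fibroblast markers (1 of 10 called higher) read 6.57 to 7.40 on chow and 7.76 to 7.93 on HFD, and macrophage markers (2 of 9 called higher) 6.71 to 7.69 and 8.05 to 8.10; their part was not tested. The fall in TRAF3 knockouts on chow was lost without any 1 of the 3 knockout arrays (-1.53 to -1.48) or without chow control 1 (-1.11), and with the ductal (-0.69, adjusted p = 0.303) or beta cell score (-0.12, adjusted p = 0.979). For Scn7a, HFD TRAF3 knockout 3 read 4.47 against 6.13 and 6.36 in the other two arrays of its group, and the same array was low in pericyte (10 of 10 measured, 6.46 against 7.89 and 7.74) and endothelial markers (8 of 8 measured, 7.51 against 8.50 and 8.62), while Schwann and neural markers (5 of 8 measured, S100b below every array's median) read 5.53 against 5.32 and 5.34; their part in the Scn7a values was not tested. The mean of TRAF3 knockouts on chow (4.33) was below every array's median, so this fold is uncertain. Scn9a (NaV1.7) was between 0.06 and 0.81 in the 4 knockout comparisons, Scn3a (NaV1.3) between -0.29 and 0.36, Scn8a (NaV1.6) between -0.72 and 0.33, and the beta subunit Scn3b between -0.45 and 0.27, and none of them was called.

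Of the 23 voltage-gated potassium channels 3 fell in TRAF3 knockouts on chow and none was called higher in a knockout comparison. The 3 were 13.0% of the 23, when 11.0% of all genes were called there in either direction and 4.69% were called lower. They were Kcnh6, Kcnh8 and Kcnh2 of the ether-a-go-go family, of which Kcnh1, Kcnh3 and Kcnh5 (-0.47, -0.32 and -1.07) were not called. Kcnh6 (ERG2), which helps repolarise beta cells, read 9.37, 8.57 and 8.07 in chow controls and 7.40, 7.89 and 7.08 in TRAF3 knockouts (-1.21 ± 0.31, adjusted p = 0.022). Kcnh8 (ELK1) read 6.78, 7.06 and 6.61 against 5.94, 6.34 and 5.41 (-0.92 ± 0.25, adjusted p = 0.0288). Kcnh2 (ERG1; named after its value was seen) was at -0.88 ± 0.25 (adjusted p = 0.0331). In TRAF2 knockouts on chow the 3 genes were at -0.70, -0.73 and -0.44, and on HFD they lay between -0.35 and 0.09 in both knockouts, none of it called. Kcna2 (KV1.2) was at 1.04, 1.23 and 1.05 in TRAF2 knockouts on chow and HFD and TRAF3 knockouts on HFD and at 0.09 in TRAF3 knockouts on chow, with none called (adjusted p = 0.222 to 0.936), and over both knockouts it was at 0.85 ± 0.25 (adjusted p = 0.0853). Kcna4 (KV1.4), a rapidly inactivating channel, stayed between -0.22 and 0.15, and Kcnq1 (KV7.1) between -0.33 and 0.53 with an SE of 0.56.

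The calcium-activated small-conductance channels, which hold the membrane down between bursts, fell for 3 of 3 members in TRAF3 knockouts on chow. Over all genes 4.69% were called lower there. Kcnn3 (SK3) read 9.27, 8.91 and 8.19 in chow controls and 7.07, 7.80 and 6.79 in TRAF3 knockouts (-1.57 ± 0.45, adjusted p = 0.0341). Kcnn2 (SK2) read 5.74, 5.72 and 5.35 against 4.92, 4.64 and 4.07 (-1.06 ± 0.23, adjusted p = 0.00824). Kcnn1 (SK1; named after its value was seen) was at -0.53 ± 0.15 (adjusted p = 0.03). TRAF2 knockouts on chow had differences of -0.93, -0.56 and -0.32 for these 3 genes, without a call. On HFD all 3 lay between -0.15 and 0.34 in both knockouts. Kcnn4, the intermediate-conductance channel of beta cells and of lymphocytes, was between 0.05 and 0.49 and was not called. Kcnma1, the pore of the large-conductance BK channel, was at -0.51 ± 0.26 in TRAF3 knockouts on chow (adjusted p = 0.259). A second probe set of Kcnma1, dimmer by its mean of 5.89 against 9.56, gave 2.06 in the same comparison: it read 5.15, 6.09 and 5.30 in chow controls, 7.84, 7.52 and 7.38 in TRAF3 knockouts on chow and 5.17 to 5.49 in TRAF3 knockouts on HFD. Which transcript this second probe set reads is not given in the sources used here.

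Accessory subunits of potassium channels moved in both directions in TRAF3 knockouts on chow, with 5 of 11 lower and 2 higher. Over all genes 4.69% were called lower there and 6.33% higher. The largest fall among all members was that of Kcnab3, a cytoplasmic beta subunit of KV1 channels, which read 7.38, 7.26 and 6.70 in chow controls, 6.56, 7.10 and 7.55 in TRAF2 knockouts and 5.37, 5.74 and 5.41 in TRAF3 knockouts (-1.61 ± 0.30, adjusted p = 0.00442). A second probe set of Kcnab3, with a mean of 4.95 over 18 arrays, gave -0.39. Kcnip2, Kcnip3 and Kcnip4 encode calcium-binding partners of KV4 channels and fell by 1.00, 0.58 and 1.27 (adjusted p = 0.0188, 0.0222 and 0.0139). Kcnip4 read 7.41, 6.54 and 6.22 against 5.38, 5.64 and 5.36. Kcnmb2, a BK channel beta subunit, fell by 0.86 (adjusted p = 0.0437), a call that held in 7 of 18 fits that left out 1 array.

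The 2 that rose were Kcne3 and Kcne4, single-span subunits that modify KV7 and KV1 channels. Kcne3 read 4.72, 5.53 and 5.41 in chow controls and 6.11, 6.01 and 6.26 in TRAF3 knockouts (0.90 ± 0.25, adjusted p = 0.0306), and in TRAF2 knockouts on chow it read 6.50, 6.03 and 6.51 (1.13 ± 0.25, adjusted p = 0.0849). Kcne4 read 4.77, 4.77 and 5.01 against 5.73, 5.77 and 5.92 (0.96 ± 0.21, adjusted p = 0.00944). Macrophage markers were higher in the same arrays (7.29 to 7.45 against 6.38 to 6.57), and ductal markers (9 of 12 measured, 1 higher) read 8.68, 8.39 and 9.05 against 7.02, 8.21 and 8.34 in chow controls; their part in these rises was not tested. With the ductal score as a covariate 3 members were still called in this comparison, Kcne4, Kcnip2 and Kcnj8. Kcnq1ot1 was between -0.40 and 0.24 and was not called.

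High-fat diet changed few of the members. In controls 0 of 82 were called by limma (12 with an unadjusted p under 0.05), when 0.884% of all genes were called and 15.9% had such an unadjusted p. In TRAF2 knockouts 1 was called, Scn7a above, when 1.96% of all genes were. In TRAF3 knockouts 7 were called, 6 higher and 1 lower on HFD, when 8.67% of all genes were (2.66% higher and 6.01% lower). The share of members called in either direction (8.54%) was near the background, but most called members were higher where most called genes were lower. The 6 were Kcnab3 (1.25), Kcng3 (1.11), Kcnj5 (0.92), Cacnb4 (0.87), Cacng4 (0.77) and Cacnb1 (0.65), with adjusted p from 0.0147 to 0.0477, and the 1 was Kcnj2 (-0.99, adjusted p = 0.0478). Of 18 fits that left out 1 array, the call held in 4 for Kcnj2, 5 for Cacnb4, 9 for Kcnj5 and 10 for Kcng3. It held in 14 for Kcnab3 and Cacng4 and in 15 for Cacnb1. Kcng3, a silent KV subunit that modifies KV2 channels, read 7.39, 7.78 and 6.80 in TRAF3 knockouts on chow and 8.72, 8.60 and 7.97 on HFD. The median of the members in this comparison was 0.24, against 0.02 over all genes. The count was 14 without HFD TRAF3 knockout 3 and 0 without HFD TRAF3 knockout 2 or chow TRAF3 knockout 3. Beta cell marker scores of TRAF3 knockouts were 9.52 to 10.29 on chow and 10.66 to 11.12 on HFD; their part was not tested.

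The effect of the TRAF3 knockout differed between diets for 3 members by the interaction term, when 5.80% of all genes were called, and that of the TRAF2 knockout for 0 by limma (3 with an unadjusted p under 0.05, against 2.83% of all genes), when 0.00% were. Kcnab3 had an interaction of 2.07 ± 0.43 (adjusted p = 0.0147): on HFD its controls read 6.23, 6.92 and 5.76 and TRAF3 knockouts 6.99, 7.0 and 6.29, so that the difference was 0.46 where it was -1.61 on chow. The second, dimmer probe set of Kcnab3 gave -0.08 on HFD and -0.39 on chow. Cacnb1 had an interaction of 1.05 ± 0.21 (adjusted p = 0.013): TRAF3 knockouts on HFD read 7.49, 7.36 and 7.10, above the HFD controls at 6.99, 6.83 and 6.80 (0.44 ± 0.15, adjusted p = 0.14), whereas on chow they lay below. Kcne3 went the other way, with an interaction of -1.34 ± 0.36 (adjusted p = 0.0378): HFD controls read 5.73, 5.51 and 6.41 and TRAF3 knockouts 5.36, 5.17 and 5.79. HFD controls were lower than chow controls for Kcnab3 (-0.81) and Cacnb1 (-0.40) and higher for Kcne3 (0.66), without a call, so both arms entered the interaction. The HFD controls were all female and the chow controls were not, and with a sex score as a covariate 3 members were called.

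**Figure D4:**
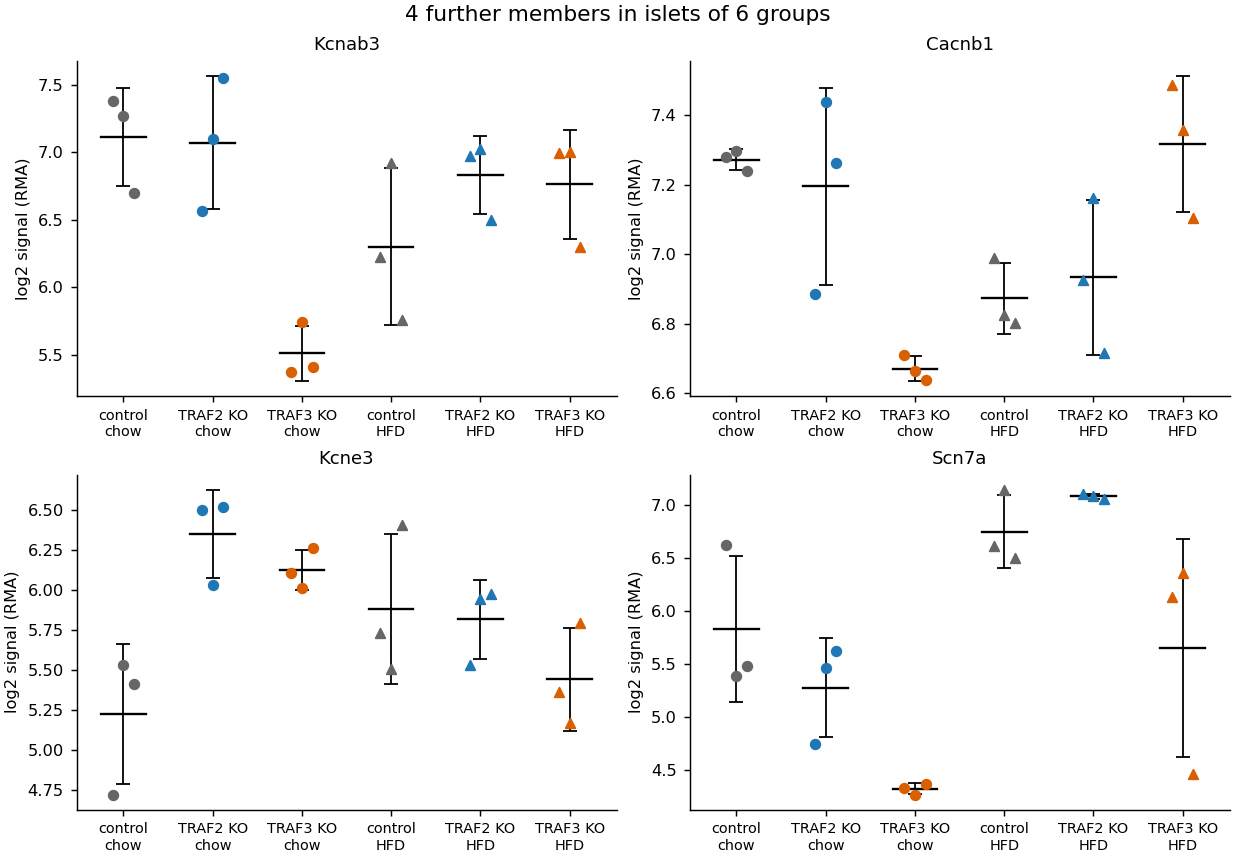
Log2 signal (y axis) of Kcnab3, Cacnb1, Kcne3 and Scn7a on each array of the 6 groups (x axis; circles, chow; triangles, HFD; KO, knockout), with the mean and SD of 3 arrays. Kcnab3 and Cacnb1 are lowest in TRAF3 knockouts on chow, and HFD TRAF3 knockout 3 is low for Scn7a (4.47).

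Set directly against each other on chow, TRAF3 and TRAF2 knockouts differed in 2 members, when 2.01% of all genes were called. Kcnab3 was 1.56 ± 0.30 lower in TRAF3 knockouts (adjusted p = 0.0178; -0.27 by its second probe set) and Kcnip3 0.64 ± 0.15 lower (adjusted p = 0.0406). Kcnip3 (DREAM), a calcium sensor that binds KV4 channels and also DNA, read 6.46, 6.67 and 6.62 in TRAF2 and 6.05, 6.15 and 5.62 in TRAF3 knockouts. Without chow TRAF2 knockout 1, the lymphocyte-rich array, 8 members were called. Without chow TRAF2 knockout 2 or 3, or chow TRAF3 knockout 1 or 3, 0 were called, with 16, 10, 13 and 8 at an unadjusted p under 0.05. On HFD the knockouts differed in 0 members by limma (7 with an unadjusted p under 0.05, against 11.2% of all genes), when 1.05% of all genes were called. The 19 members that fell in TRAF3 knockouts on chow had differences from -0.93 to 0.06 in TRAF2 knockouts on chow, with none called, so a fall in 1 knockout and not in the other is not shown to be a difference between them except for Kcnab3 and Kcnip3.

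Other genes of stimulus-secretion coupling were read from lists. For the counts that follow, 4.69% of all genes were called lower in TRAF3 knockouts on chow and 6.33% higher. Of channels that textbooks name for beta cells, 18 of 22 were measured, 17 of them members, and 6 fell in TRAF3 knockouts on chow: Kcnn3, Kcnh6, Cacna2d1, Kcnk16, Cacnb2 and, below the level limit, Kcnc2. None of the 18 was called in the other knockout comparisons. Of 5 measured genes of glucose sensing and the partner subunits of ATP-sensitive channels (of 6 listed), 2 fell in TRAF3 knockouts on chow, the glucose transporter Slc2a2 by 2.97 (adjusted p = 0.00313) and the incretin receptor Glp1r by 0.54 (adjusted p = 0.0355), while the sulfonylurea receptor Abcc8 was at -0.73 ± 0.28 (adjusted p = 0.104). Both were higher on HFD than on chow in TRAF3 knockouts, by 2.61 and 0.54 (adjusted p = 0.00719 and 0.0396). Of 20 measured pump and calcium-handling genes (of 26) 5 fell there and 0 rose, among them Calb1, a calcium buffer, by 2.01 (adjusted p = 0.0111), the sodium pump subunit Atp1b2 by 1.78 (adjusted p = 0.00111) and the calcium pumps Atp2b4 by 0.98 (adjusted p = 0.0347) and Atp2b1 by 0.75 (adjusted p = 0.00926).

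Of 16 measured depolarising and anion channels (of 18) 2 rose and 1 fell in TRAF3 knockouts on chow, when 6.33% of all genes were called higher and 4.69% lower. The chloride channel Ano1 rose by 1.64 (adjusted p = 0.047) and the ATP-gated channel P2rx7, also a macrophage gene, by 1.17 (adjusted p = 0.0192), and the pacemaker channel Hcn4 fell by 1.38 (adjusted p = 0.00547). Of 15 measured accessory proteins whose names fall outside the rule (of 16), Lrrc55, a gamma subunit of BK channels, rose in all 4 knockout comparisons by 2.90 to 5.04, where the probe set used for its pore Kcnma1 was not called (-0.51 to 0.21). The second, dimmer probe set of Kcnma1 gave 2.06 in TRAF3 knockouts on chow and 0.06 to 0.44 in the others. Gem, a small GTPase that inhibits calcium channels through their beta subunits, rose by 1.77 in TRAF2 and 1.50 in TRAF3 knockouts on chow (adjusted p = 0.031 and 0.0102) and by 2.74 in TRAF3 knockouts on HFD (adjusted p = 0.000814), but was at 0.15 in TRAF2 knockouts on HFD. The KV4 partners Dpp10 and Dpp6 fell in TRAF3 knockouts on chow by 2.32 and 1.40 (adjusted p = 0.00221 and 0.00566), as the KV4 partners Kcnip2, Kcnip3 and Kcnip4 did; Kcnip1 was at -0.50 and was not called (adjusted p = 0.148).

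**Figure D5:**
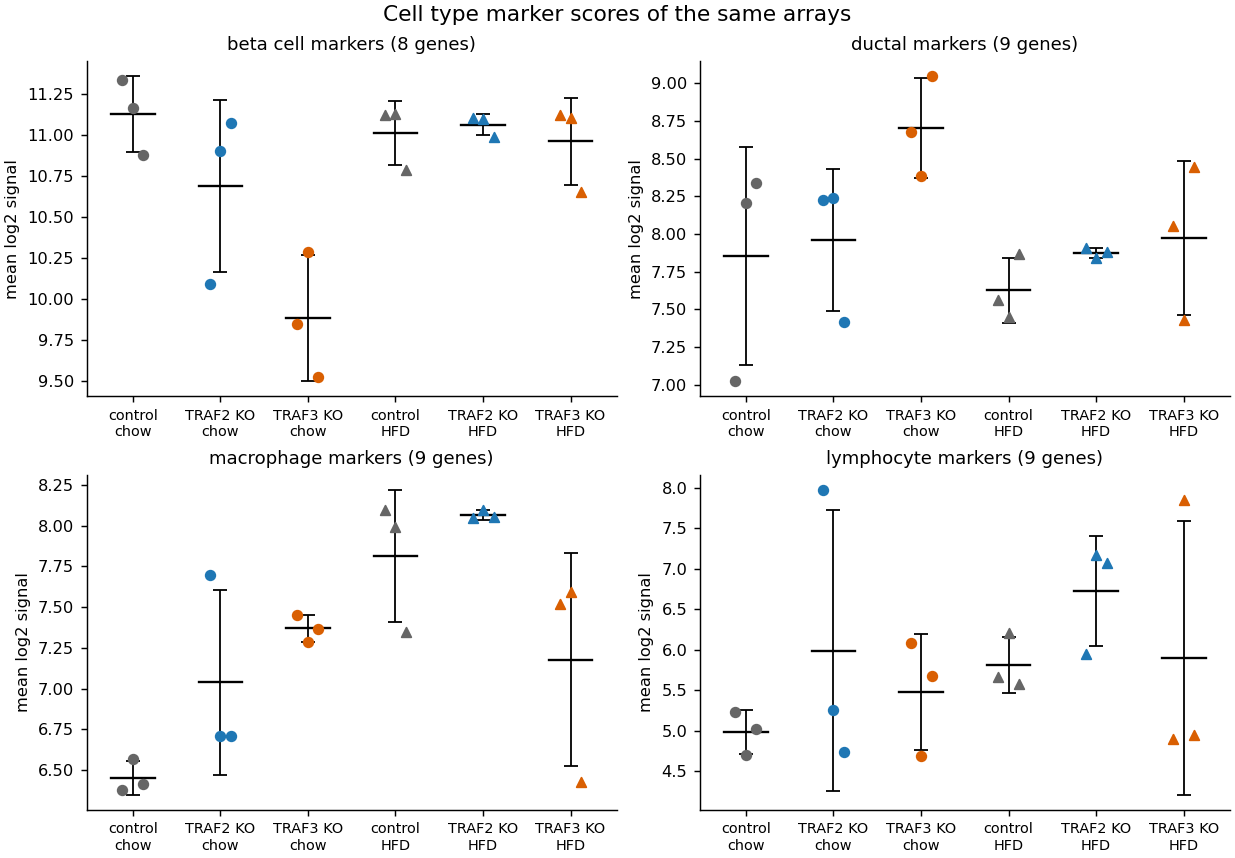
Mean log2 signal (y axis) of beta cell, ductal, macrophage and lymphocyte markers on each array of the 6 groups (x axis; circles, chow; triangles, HFD; KO, knockout), with the mean and SD of 3 arrays. Beta cell markers of the TRAF3 knockouts on chow (9.52 to 10.29) lie below the chow controls (10.88 to 11.34), and on HFD the groups overlap.

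On HFD, beta cell markers read 10.79 to 11.13 in controls, 10.99 to 11.11 in TRAF2 knockouts and 10.66 to 11.12 in TRAF3 knockouts, and 0 of 8 were called in either knockout. There Kcnj5 and Kcnk10 were called and no other member was. Of the other marker lists in TRAF3 knockouts on chow, 2 of 5 alpha cell markers fell, 1 of 5 adipocyte markers rose (Adipoq and Lep were below every array's median), and 0 of 4 delta cell, 0 of 2 PP cell, 0 of 10 acinar, 0 of 8 endothelial, 0 of 5 Schwann and neural and 0 of 9 lymphocyte markers were called by limma, with 1, 2, 1, 3, 1 and 0 at an unadjusted p under 0.05. Over all genes 11.0% were called in that comparison and 24.2% had such an unadjusted p. Lymphocyte markers (9 of 10 measured) were raised on chow TRAF2 knockout 1 (7.97) and HFD TRAF3 knockout 2 (7.84) against 4.69 to 7.17 elsewhere. Without these 2 arrays, a choice made after seeing the data, 7 members were called over both knockouts and diets, among them Kcnj5 and Kcnk10. No member of the marker lists for beta cells, ducts, macrophages or lymphocytes was below every array's median, so none of these cell types can be called absent. Of 43 channel genes below the level limit, 3 (6.98%, against 11.0% of all genes) were called in TRAF3 knockouts on chow: Kcnj15 (Kir4.2) at 1.00, Kcnc2 (KV3.2) at -0.46 and Kcnh7 (ERG3) at -0.41, and 0 in the other knockout comparisons.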

How the data were processed

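The values are log2 RMA signals as deposited; per the labels and the submitters' processing notes the authors made them with RMA and name limma, with no version given. No genome build of the probe sets is given in the sources used here. Of 41345 probe sets, 23521 had exactly 1 symbol, 1814 several and 16010 none; the probe set with the highest mean over 18 arrays stood for each of 22180 genes. One limma 3.58.1 model (R 4.3.3) of 6 group means gave 12 comparisons, with Benjamini-Hochberg adjustment over all genes, and the procedure was tested on simulated data.

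Arrays carry no counts, so their number, 3 per group, limits the precision. Genes were named as the up to 10 largest called rises and falls per comparison, the 2 highest of each role by mean signal and the textbook list. The members and lists (beta cell channels, 4 pathway lists, 12 marker lists) were chosen with earlier results of these data known. Alternatives covered scaling, normalization, variance model, dim genes (11090 genes kept, 53 of them members), probe sets, samples fitted, replicate block, sex, ductal and acinar scores and single arrays. No columns were identical. 1 gene that fits the name rule and the transcript of TRAF3 are not reported here.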

Additional observations from a re-analysis of the deposited data

Results flagged for a closer look

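The effect of the TRAF3 knockout differed between diets for 3 of the 82 members, when 5.80% of all genes were called. The 2 knockouts differed on chow for 2 of the 82, when 2.01% of all genes were called. Each was called by limma's test of the difference itself over all genes. Kcnab3, a KV1 beta subunit, had a knockout by diet interaction of 2.07 (adjusted p = 0.0147) and Cacnb1, a calcium channel beta subunit, one of 1.05 (adjusted p = 0.013). Both held in every alternative run except with the beta cell score as a covariate (0.82 with an adjusted p of 0.488, and 0.61 with 0.399). The second, dimmer probe set of Kcnab3 gave TRAF3 knockout differences of -0.39 on chow and -0.08 on HFD, where the probe set used gave -1.61 and 0.46, and -0.27 between the knockouts on chow. Kcne3 had an interaction of -1.34 (adjusted p = 0.0378), which missed the threshold without several single arrays, for example at -1.08 without HFD control 3. Kcnab3 was lower in TRAF3 than in TRAF2 knockouts on chow, at -1.56 (adjusted p = 0.0178), a call that held in 14 of 18 fits that left out 1 array; it was lost without chow TRAF2 knockout 2 or chow TRAF3 knockout 1, and at -1.32 (adjusted p = 0.132) without chow TRAF2 knockout 3 and at -1.51 (adjusted p = 0.107) without chow TRAF3 knockout 3. It also missed it when only the compared groups were fitted (adjusted p = 0.149) and with the ductal (-1.10, adjusted p = 0.125) or beta cell score (-0.72, adjusted p = 0.574) as a covariate. Kcnip3 was at -0.64 (adjusted p = 0.0406) in that comparison and at -0.48 (adjusted p = 0.244) without chow TRAF3 knockout 3, and its call held in 7 of 18 such fits.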

How the results depend on the processing

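Of 45 results for named genes, 6 were called in every alternative and 11 without any single array; the 9 that reversed did so with the beta cell score as a covariate, chosen after seeing the data. In TRAF3 knockouts on chow Cacna2d1 became 0.15, Cacnb2 0.05, Kcnh6 0.14, Kcnh8 0.20, Kcnk16 0.15, Kcnmb2 0.44 and Kcnn3 0.54, and between diets in TRAF3 knockouts Cacnb4 became -0.02 and Kcng3 -0.17; group and score cannot be told apart there.

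Counts of members called moved as follows, and the cause was not tested. For 0 the number at an unadjusted limma p under 0.05 follows. With the ductal score as a covariate there were 3 (TRAF3 on chow), 4 (TRAF3 on HFD), 7 (both knockouts), 5 (diet in controls), 2 (diet in TRAF2), 0 with 16 (diet in TRAF3), 0 with 11 (TRAF3 against TRAF2 on chow), 1 (on HFD) and 5 (TRAF3 interaction). With the acinar score there were 39, 5, 15, 4 (diet in TRAF2), 14 (diet in TRAF3), 5 and 2 (TRAF3 against TRAF2 on chow and HFD) and 6 (interaction). With the beta cell score there were 0 with 11 (TRAF3 on chow), 2 and 0 with 16 (diet in TRAF2 and TRAF3), 0 with 9 (TRAF3 against TRAF2 on chow) and 0 with 8 (interaction). Fitting only the groups compared gave 0 with 13 for TRAF2 on chow, 2 for diet in TRAF3 and 0 with 18 for TRAF3 against TRAF2 on chow. Without dim genes the last was 4 and the interaction 5, quantile normalization gave 1 for the former, and centring on medians gave 3 for diet in TRAF3. Without the 2 lymphocyte-rich arrays there were 7 over both knockouts and 8 and 1 for TRAF3 against TRAF2 on chow and HFD.

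Leaving out each array in turn gave 0 to 4 members for TRAF2 and 3 to 28 for TRAF3 on chow, 2 to 3 for either knockout on HFD, 3 to 7 over both, 0 to 2 for diet in controls and in TRAF2, 0 to 14 for diet in TRAF3, 0 to 8 and 0 to 0 for TRAF3 against TRAF2 on chow and HFD, and 0 to 0 and 2 to 9 for the TRAF2 and TRAF3 interactions. The count for TRAF2 on chow was 4 without its replicate 2, 1 without chow control 1 or 2 and 0 without its replicate 3. The TRAF3 interaction count was 9 without HFD TRAF3 knockout 3.

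Samples share only a replicate number: of 45 pairs of same-numbered arrays, correlations of deviations ran from -0.549 to 0.529 (median 0.029, 16 over 0.1). Those of 90 pairs with different numbers ran from -0.490 to 0.553 (median -0.032, 23 over 0.1). With the replicate block the count was 3 for TRAF2 and 27 for TRAF3 on chow, 2 for each on HFD, 6 over both, 0, 1 and 8 for diet in controls, TRAF2 and TRAF3, 2 and 0 for TRAF3 against TRAF2, and 0 and 4 for the interactions.

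Of 41 called differences between 2 groups, 10, in 6 genes (Kcnj5, Kcnk10, Kcne4, Kcnip2, Kcnn2 and Scn7a), had a lower group mean at or under 4.96, the highest array median, where signal over background limits the fold.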
